A study of Mus musculus with 17 samples.

Results

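Perivascular macrophages are the macrophages that line the blood vessels of the brain, between the vessel wall and the tissue. Here they were the nuclei that carried the deposited cell type label of that name, in any cluster, after nuclei called doublets by the authors had been left out. They numbered 607 of 236316 such nuclei (0.257%), out of 284074 nuclei deposited. A further 50 nuclei of the label (7.61% of its 657) were doublet calls and were not used. The same rule gave 8159 nuclei labelled microglia, the macrophages of the brain tissue itself, which served as the comparison.

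The tissue was posterior brain, from 17 mice that the labels give as female, aged 2.3 months and homozygous for a knock-in of the human transferrin receptor (TfR), so that all groups, controls included, carried the human receptor. Saline went to 4 mice by vein. The others received, by the same route, the unconjugated Malat1 antisense oligonucleotide (Malat1 ASO, 2 mg per kg, n = 4), or an oligonucleotide against Malat1 carried on an antibody against TfR (anti-TfR:Malat1, 50 mg per kg, n = 6), or on an oligonucleotide transport vehicle whose engineered Fc region binds TfR (OTV:Malat1, 50 mg per kg, n = 3). There were 4 doses over 24 days, with the brain collected 72 hours later. At issue was how far each compound reduces Malat1 in these macrophages; all comparisons with saline share the 4 saline animals. The oligonucleotide load of the 2 carriers is not stated in the labels.

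Perivascular macrophages take up proteins and particles from the blood side and the perivascular space through scavenger and mannose receptors, and present antigen. They lie close to the vessels that an intravenous compound must cross, while microglia lie deeper in the tissue. An antisense oligonucleotide of this kind pairs with its RNA and lets RNase H cut it, and Malat1 is an abundant long noncoding RNA held in the nucleus, so nuclear RNA reads it directly. In the GENCODE M21 annotation of GRCm38, Malat1 lies on chromosome 19 from 5795690 to 5802672 on the minus strand, in a region of long noncoding RNA that also holds Neat1 (5824708 to 5845478, minus strand).

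The label held 610876 UMIs (unique molecular identifiers, counted RNA molecules), with 502 to 2990 UMIs per nucleus and a median of 928, against a median of 992 in microglia. Each animal gave 23 to 57 nuclei and 21209 to 63236 UMIs, so that values of genes with few counts are coarse. Levels are given as CPM (a gene's UMIs in an animal for each 1000000 UMIs of the label there). No barcode was shared by nuclei of the label in different libraries, and 35 of the 607 (5.77%) had a barcode that also occurred in another library, against 7.16% of all nuclei. The library labelled Malat1 ASO replicate 1 stood apart: Xist, the RNA of the silenced X chromosome, was at 0.589 CPM over all its nuclei, against 913 to 1301 CPM in the other 16 animals. Its perivascular macrophages held 0 UMIs of Xist, and Y-linked genes stayed at or under 0.175 CPM in every animal. The main differences of Malat1 ASO for Malat1, Neat1, Cd163 and the shares are therefore also given without that library. It still enters the list medians of Malat1 ASO and the values restricted by score or taken within batches.

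Most nuclei of the label carried its defining markers. Mrc1, the mannose receptor, reached 2161 CPM at the lowest, 2966 at the median and 4331 at the highest of the 17 animals, against 2.23 to 24.0 CPM in microglia. F13a1, which codes for the A chain of coagulation factor XIII, reached 2956, 3714 and 5061 CPM, and only 1 UMI of it was found in all 8159 microglia. Cd163, the scavenger receptor for haemoglobin bound to haptoglobin, reached 144, 460 and 880 CPM, against 3 UMIs in microglia. The 2 labels did not overlap in any animal for these genes (higher in 17 of 17), but both labels had been transferred from expression, so this describes the label and is no test of it.

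**Figure D1:**
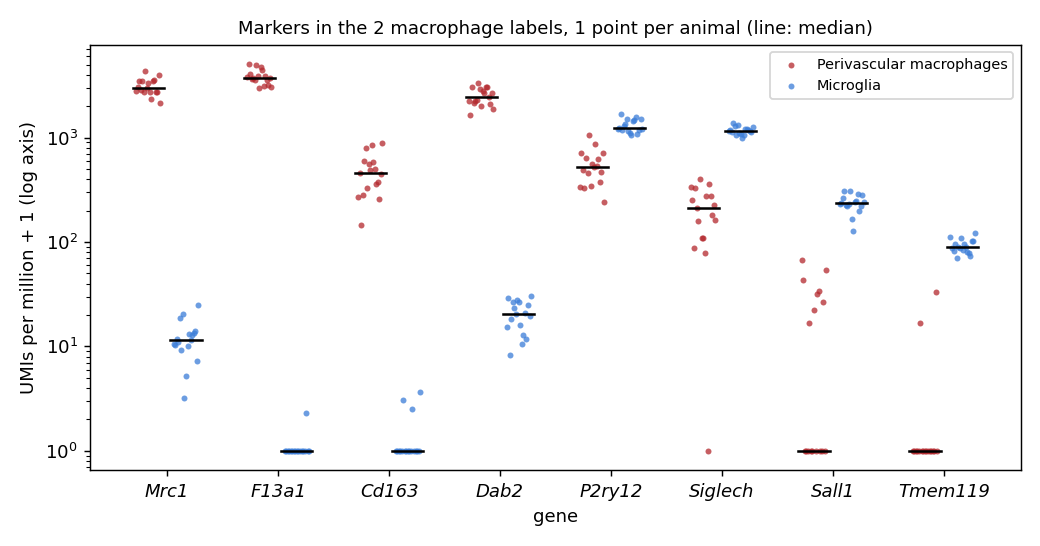
CPM (plus 1, log axis) of perivascular macrophage genes (Mrc1, F13a1, Cd163, Dab2) and microglial genes (P2ry12, Siglech, Sall1, Tmem119) in both labels, 1 point per animal (17 animals) with the median as a line. Mrc1 stands between 2161 and 4331 CPM in perivascular macrophages and at 24.0 CPM or less in microglia, while Siglech is higher in microglia in every animal.

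Per nucleus, 82.4% had a UMI of Mrc1, 79.6% of F13a1 and 28.3% of Cd163. With each nucleus thinned to 500 UMIs, the shares were 67.4%, 65.6% and 17.5%. In microglia, which should lack these genes, the unthinned shares were 0.956%, 0.0123% and 0.0368%. None of the 3 markers was seen in 61 nuclei of the label (10.0%) and all 3 were seen in 156 (25.7%), while 8078 of the 8159 microglia (99.01%) had none.

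Beyond the 3 markers, the label stood apart from microglia in listed scavenger receptors and antigen presentation genes. Of 4855 genes with a mean of 50 CPM or more in either label, 220 (4.53%) were at least 4 times higher in perivascular macrophages and 137 (2.82%) at least 4 times higher in microglia. These are descriptions with no test, because the label itself was drawn from expression. The 10 largest ratios toward perivascular macrophages belonged to F13a1, Cd163, Ms4a7, Cd38, Ifi203, Ms4a4a, Colec12, Clec10a, Mrc1 and Timd4. The 10 largest toward microglia belonged to Myo18b, Mlph, Sall3, Ccdc192, Ebf3, Tmem119, Col27a1, Kcnk12, Ets1 and Nhs.

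Of 22 listed genes of perivascular macrophage identity, 19 reached 50 CPM in a label, and 17 of these were at least 4 times higher in perivascular macrophages. Dab2, an endocytic adaptor protein, stood at 2493 ± 484 CPM (SD, n = 17 animals) against 19.2 ± 6.84 CPM in microglia. Rbpj, the transcription factor of Notch signalling, stood at 3796 ± 795 against 102 ± 13.8 CPM. Both genes were higher in 17 of 17 animals. Lyve1, a hyaluronan receptor that marks a fraction of vessel-associated macrophages, was sparse, with 52 UMIs in 6.59% of the nuclei, against 2 UMIs in microglia. Ednrb, an endothelin receptor, reached 141 ± 78.1 CPM against 6.80 ± 4.08 CPM, again higher in 17 of 17 animals.

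Of 15 listed genes for scavenger and oligonucleotide-binding receptors, 8 reached 50 CPM in a label and 6 of these (Stab1, Msr1, Cd36, Colec12, Mrc1 and Cd163) were at least 4 times higher in perivascular macrophages. Without the defining markers Mrc1 and Cd163 it was 4 of 6. Some of these receptors, Stab1 among them, are known to bind phosphorothioate oligonucleotides. Stab1 stood at 1379 ± 309 CPM against 183 ± 34.7 CPM in microglia. Colec12, a collectin-type scavenger receptor, stood at 798 ± 269 CPM against 1.54 ± 2.06 CPM. Msr1, the class A scavenger receptor, stood at 154 ± 79.1 CPM against 1.99 ± 2.44 CPM. Each of the 3 was higher in 17 of 17 animals. Tfrc, the transferrin receptor of the mouse and the counterpart of the human receptor both carriers bind, had 12 UMIs in all 607 nuclei (18.3 ± 24.6 CPM), so its level could not be compared between groups. Whether its counts include transcripts of the human knock-in is not stated in the labels.

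Of the 6 listed genes of antigen presentation by MHC class II that reached 50 CPM, 5 were at least 4 times higher in perivascular macrophages. Cd74, the invariant chain that escorts class II molecules, stood at 222 ± 149 CPM against 3.61 ± 4.35 CPM, higher in 17 of 17 animals. H2-Eb1, a class II chain, stood at 136 ± 88.2 CPM against 2.16 ± 2.12 CPM, higher in 16 of 17. Among the genes for handling antibodies, Fcgr2b, the inhibitory receptor for immunoglobulin G, stood at 211 ± 94.0 against 46.8 ± 12.5 CPM (16 of 17). Fcgrt, whose product recycles immunoglobulin G inside cells, stood at 64.3 ± 42.4 against 7.35 ± 3.23 CPM (14 of 17). Apoe, the lipid carrier, was at 1532 ± 598 against 171 ± 30.0 CPM, and Cp, the copper oxidase ceruloplasmin of iron export, at 418 ± 147 against 49.2 ± 12.5 CPM. Both were higher in 17 of 17 animals. Neat1, the long noncoding RNA next to Malat1, stood at 346 ± 137 against 63.7 ± 14.9 CPM, likewise higher in 17 of 17.

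Genes listed as shared by macrophages and microglia were compared in the same way. None of the 17 such genes that reached 50 CPM differed by 4 times or more. Over all 4855 genes, 4.53% were that much higher in perivascular macrophages and 2.82% in microglia. The count is near these shares, and nothing is read from it. Mef2c, a transcription factor, was at 1885 ± 374 CPM against 1899 ± 128 CPM, and was higher in perivascular macrophages in 7 of 17 animals. Spi1, which codes for the myeloid transcription factor PU.1, was at 290 ± 96.5 against 304 ± 29.3 CPM. Csf1r, the receptor on which both cell types depend, was at 590 ± 150 against 788 ± 64.4 CPM and lower in 17 of 17 animals.

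Of 15 genes listed for resting microglia, 14 reached 50 CPM and 9 of these, among them Tmem119, Sall1, Siglech, Gpr34, Sparc, Olfml3, Selplg and Slc2a5, were at least 4 times higher in microglia. Tmem119 had 2 UMIs in all perivascular macrophages. Sall1, a transcription factor of microglial identity, stood at 16.99 ± 21.8 CPM against 237 ± 45.8 CPM in microglia. P2ry12, a purinergic receptor, remained measurable in perivascular macrophages at 543 ± 209 CPM, against 1308 ± 186 CPM. None of the 6 genes of nucleic acid sensing and none of the 5 genes of RNase H and RNA decay that reached 50 CPM differed by 4 times or more. Both counts are near the shares over all 4855 genes (4.53% higher and 2.82% lower in perivascular macrophages), and nothing is read from them. The endosomal receptor Tlr7, which senses RNA, stood at 242 ± 105 against 195 ± 21.9 CPM.

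The label was not uniform. Its deposited prediction score (0 to 1) had a median of 1, against 0.773 in microglia, and 386 of the 607 nuclei scored 0.99 or more. A group of 77 nuclei (12.7%) scored under 0.7. Of the 47 nuclei scoring from 0.3 to 0.5, 14.9% had a UMI of Mrc1, F13a1 or Cd163, against 100% of those at 0.99 or more. Depth differed little: the median was 825 UMIs under a score of 0.7 and 953 at or above it.

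**Figure D2:**
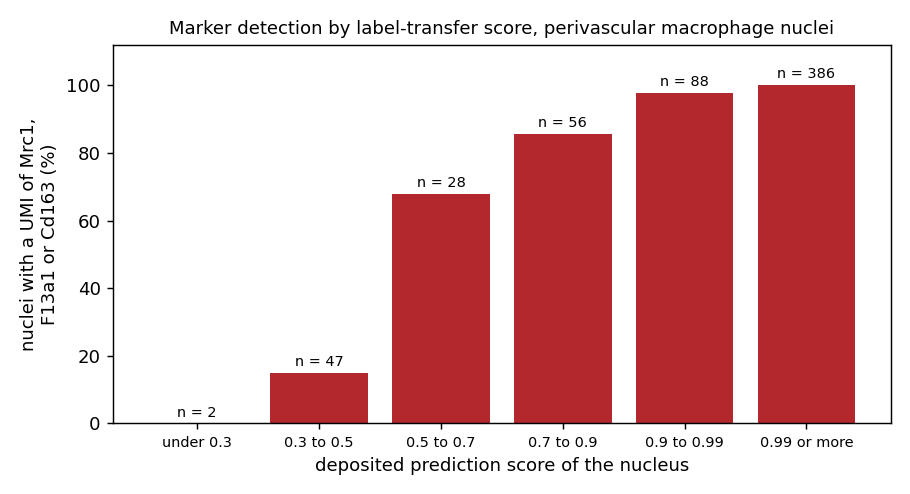
Share of perivascular macrophage nuclei with at least 1 UMI of Mrc1, F13a1 or Cd163 (percent, vertical axis) by deposited prediction score (horizontal axis), with the number of nuclei over each bar. The share rises from 14.9% between 0.3 and 0.5 to 100% at 0.99 or more.

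With the nuclei of each side summed, those under 0.7 held 354 CPM of Mrc1, against 3401 CPM at or above it. Genes of microglia did not move together. Nav2, Csmd3 and Plxdc2, chosen after their values were seen, stood at 4162, 4728 and 4720 CPM in microglia. They were at 2510, 2701 and 3130 CPM under 0.7, against 125, 217 and 276 CPM above. The microglial markers P2ry12 and Siglech did not follow them: P2ry12 was at 472 CPM under 0.7 and 534 CPM above, against 1307 CPM in microglia, and Siglech at 118, 208 and 1170 CPM. Ccr2, a chemokine receptor of monocyte-derived cells, was at 325 and 86.5 CPM, and Klra2, a lectin-like receptor, at 576 and 95.7 CPM, against 5.71 and 2.97 CPM in microglia. The low-scoring nuclei thus held few of the defining markers, and the Malat1 results are also given without them. Their share was 16.6% ± 11.97 (SD, n = 4) in saline animals, 14.9% ± 10.1 (n = 4) with Malat1 ASO, 11.1% ± 6.71 (n = 6) with anti-TfR:Malat1 and 10.5% ± 6.36 (n = 3) with OTV:Malat1, ranges that overlapped.

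RNA of other brain cells was present at a low level. Meg3, a noncoding RNA of neurons, stood in perivascular macrophages at 6.94% of its level in nuclei labelled neurons, and in microglia at 7.41%. The summed CPM of 6 neuronal markers ranged from 1101 to 1921 in saline animals, 870 to 2829 with Malat1 ASO, 1367 to 2355 with anti-TfR:Malat1 and 1154 to 1565 with OTV:Malat1. In the same order, the oligodendrocyte markers ranged from 375 to 1121, 502 to 1924, 330 to 750 and 801 to 1328, and the astrocyte markers from 77.3 to 225, 86.2 to 209, 51.8 to 154 and 31.6 to 72.8. Oligodendrocyte sums with OTV:Malat1 thus lay above all those with anti-TfR:Malat1, and astrocyte sums with OTV:Malat1 lay below all those of saline. Markers of lymphocytes were at 0 in 7 of 7 genes. Those of monocytes, neutrophils and dendritic cells were not, with 4 of 8 at 0. Their sums ranged from 75.1 to 361 CPM in saline animals, where microglia averaged 21.2 CPM. With Malat1 ASO they ran from 167 to 259, with anti-TfR:Malat1 from 77.6 to 403 and with OTV:Malat1 from 109 to 213 CPM. Ccr2 and Zbtb46 of this list were at least 4 times higher than in microglia. Among endothelial markers 5 of 7 (Flt1, Cldn5, Slco1a4, Mecom and Adgrl4) were at 0, with sums of 0 to 51.5 CPM in saline animals and 0 to 42.6 CPM with OTV:Malat1, and 3 of 6 mural and 4 of 6 fibroblast markers were at 0.

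Among nuclei not called doublets, the share of perivascular macrophages was 0.230%, 0.258%, 0.223% and 0.319% in the saline animals, and 0.217%, 0.181%, 0.241% and 0.174% with Malat1 ASO. With anti-TfR:Malat1 it was 0.230% at the lowest, 0.285% at the median and 0.338% at the highest, and with OTV:Malat1 it was 0.196%, 0.376% and 0.220%. The groups overlapped in each comparison. Against saline the differences were 0.0066 percentage points for OTV:Malat1 (p = 1), 0.0303 for anti-TfR:Malat1 (p = 0.248) and -0.0542 for Malat1 ASO (p = 0.114, and -0.0586 with p = 0.171 without replicate 1), by exact two-sided permutation tests. Between OTV:Malat1 and anti-TfR:Malat1 the difference was -0.0237 percentage points (exact permutation p = 0.619). These differences moved with single animals. That of anti-TfR:Malat1 was 0.0188 points without saline replicate 3 and 0.0508 without saline replicate 4, which also brought that of Malat1 ASO to -0.0337. That of OTV:Malat1 changed sign, to -0.0494 points against saline without OTV:Malat1 replicate 2 and to 0.0105 against anti-TfR:Malat1 without OTV:Malat1 replicate 1.

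Malat1 in perivascular macrophages was lower with OTV:Malat1 than with saline, by less with anti-TfR:Malat1, and close to saline with the free oligonucleotide. It made up 6.79%, 6.43%, 7.17% and 5.27% of the UMIs of the label in the 4 saline animals, a mean of 6.42% ± 0.824 (SD). With Malat1 ASO it made up 5.47%, 5.92%, 7.63% and 5.35%, a mean of 6.09% ± 1.05. With anti-TfR:Malat1 the lowest of 6 animals had 4.35%, the median was 5.37% and the highest had 6.41%, a mean of 5.44% ± 0.726. With OTV:Malat1 the 3 animals had 3.75%, 4.51% and 3.94%, a mean of 4.06% ± 0.395. All 3 OTV:Malat1 animals lay below all 4 saline animals, as did 3 of the 6 anti-TfR:Malat1 animals and 0 of the 4 Malat1 ASO animals. These values rest on 34006 Malat1 UMIs. Over all deposited nuclei of each animal, Malat1 made up 6.85% ± 1.56 (SD) in saline and 6.55% ± 1.35 with Malat1 ASO. It made up 5.92% ± 0.996 with anti-TfR:Malat1 and 4.00% ± 0.572 with OTV:Malat1. What part RNA from other nuclei had in the macrophage values was not tested.

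**Figure D3:**
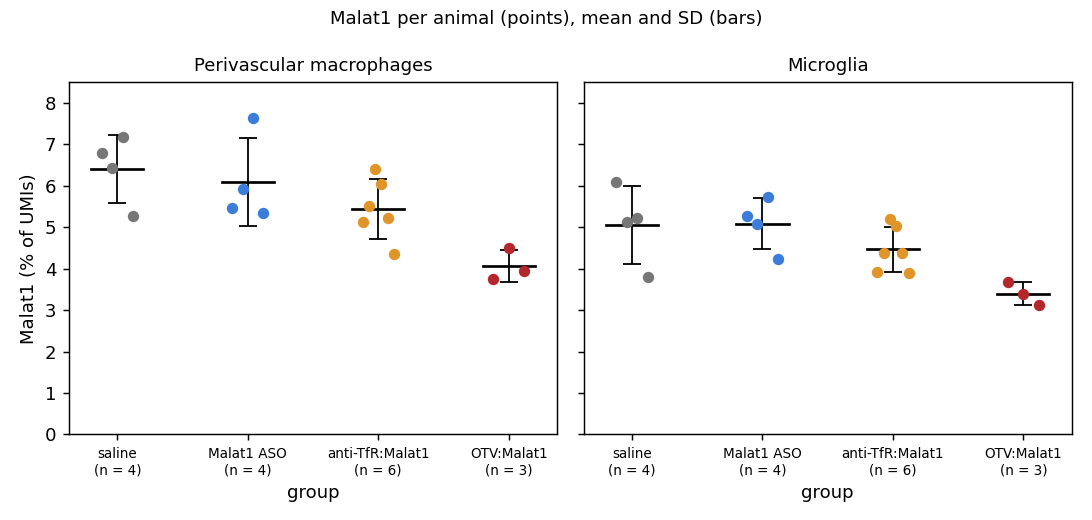
Malat1 as a percent of all UMIs in perivascular macrophages (left) and microglia (right), 1 point per animal, with the mean as a line and the SD as bars, for saline (4 animals), Malat1 ASO (4), anti-TfR:Malat1 (6) and OTV:Malat1 (3). In perivascular macrophages the 3 OTV:Malat1 animals lie between 3.75% and 4.51%, below the lowest saline animal at 5.27%.

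In the fit over all 1069 genes that passed the filter on low counts, Malat1 with OTV:Malat1 stood at 0.628 times its saline level (log2 change -0.67, SE 0.18). Its edgeR p was 0.000466 unadjusted and 0.498 after Benjamini-Hochberg adjustment over those genes. Over those genes, the groups were separate without overlap in 2.9%, Malat1 among them, with OTV:Malat1 lower, and in 2.53% with it higher. No gene was called in this comparison at an adjusted p under 0.05 (0%) by edgeR or DESeq2, while 35 (3.27%) had an unadjusted edgeR p under 0.05. The deposited table also names 4 batches without saying what they are, and each compound except OTV:Malat1, which had no animal in batch 1, was in all 4. With batch as a term in the edgeR fit, the change was -0.69 with an adjusted p of 0.000572. Within batches 2, 3 and 4 OTV:Malat1 lay 0.78, 0.67 and 0.42 log2 units below saline. Without nuclei scoring under 0.7 the change was -0.65 (SE 0.18, edgeR adjusted p = 0.625). The part of the lower astrocyte marker sums given above in this difference was not tested.

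With anti-TfR:Malat1, Malat1 stood at 0.851 times the saline level (log2 change -0.23, SE 0.15, edgeR adjusted p = 0.979), and the groups overlapped. They did not overlap for 0.655% of genes with anti-TfR:Malat1 lower and 0.468% with it higher. No gene was called here (0% by edgeR, also none by DESeq2), and 52 (4.86%) had an unadjusted edgeR p under 0.05. The difference was -0.41, -0.22, -0.21 and -0.14 log2 units in batches 1 to 4, lower in each, and with batch as a term the change was -0.25 (edgeR adjusted p = 0.697). It was -0.15 without saline replicate 3 and -0.22 without nuclei scoring under 0.7. Both tested oligodendrocyte markers lay below 0 here, with a median log2 difference of -0.81 against 0.00 over all genes, and their summed CPM overlapped (330 to 750 against 375 to 1121 in saline). Their part in the Malat1 difference was not tested. With Malat1 ASO the change was -0.06 (SE 0.16, edgeR adjusted p = 0.976), -0.01 without replicate 1 (edgeR adjusted p = 0.9999) and -0.07 without nuclei scoring under 0.7. The within-batch differences were -0.31, -0.12, 0.09 and 0.02, of both signs. Again no gene was called (0% by edgeR, also none by DESeq2), with 53 (4.96%) at an unadjusted edgeR p under 0.05. The groups did not overlap for 1.59% of genes in each direction.

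Between the 2 carriers, Malat1 was lower with OTV:Malat1, at 0.739 times the anti-TfR:Malat1 level (log2 change -0.44, SE 0.16, edgeR adjusted p = 0.774). Of the 3 OTV:Malat1 animals 2 lay below all 6 anti-TfR:Malat1 animals, and within batches 2, 3 and 4 the differences were -0.56, -0.47 and -0.27. With batch as a term the edgeR adjusted p was 0.234, and without nuclei scoring under 0.7 the change was -0.42. Markers of other cells moved in this comparison: both tested oligodendrocyte markers lay above 0 with a median log2 difference of 0.97, and 3 of 4 tested neuronal markers lay below it with a median of -0.49, against -0.01 over all genes. Their part in the Malat1 difference was not tested. No gene was called (0% by edgeR, also none by DESeq2), with 47 (4.4%) at an unadjusted p under 0.05, and the groups did not overlap for 1.22% of genes lower and 0.935% higher with OTV:Malat1.

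Malat1 was also tested as a single value, log2(CPM + 1) per animal, with an exact permutation test (two-sided) that moves animals between groups. The OTV:Malat1 mean lay at -0.65 relative to saline (exact p = 0.0571, which is the smallest that 3 animals against 4 allow). The other differences were -0.24 for anti-TfR:Malat1 against saline (exact p = 0.0762), -0.08 for Malat1 ASO against saline (exact p = 0.6, and -0.03 with p = 0.857 without replicate 1) and -0.41 for OTV:Malat1 against anti-TfR:Malat1 (exact p = 0.0476). Adjusted over these 4 comparisons, the exact test gave 0.102 for each of the 3 comparisons that involve a carrier, so none passed 0.05. Without nuclei scoring under 0.7 the 4 differences were -0.65, -0.25, -0.10 and -0.41. With animals exchanged only within batches, OTV:Malat1 against saline gave -0.62 (exact p = 0.25, the smallest that those batches allow).

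Whether the lower Malat1 ran through all nuclei or a fraction was looked at by thinning each of the 607 nuclei to 500 UMIs. The median Malat1 count per nucleus was then 30 in saline, 30 with Malat1 ASO, 27 with anti-TfR:Malat1 and 19 with OTV:Malat1. The middle 50% of OTV:Malat1 nuclei ran from 12 to 27.5 UMIs and that of saline nuclei from 24 to 38, so the nuclei of both groups overlapped. Nuclei under 19 Malat1 UMIs were called low. This limit is the 10th percentile in saline, each saline animal having equal weight, so the saline mean lies near 10% by definition. The limit was kept when animals were moved between groups or left out. Permutation p-values against saline are therefore only approximate for this share.

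**Figure D4:**
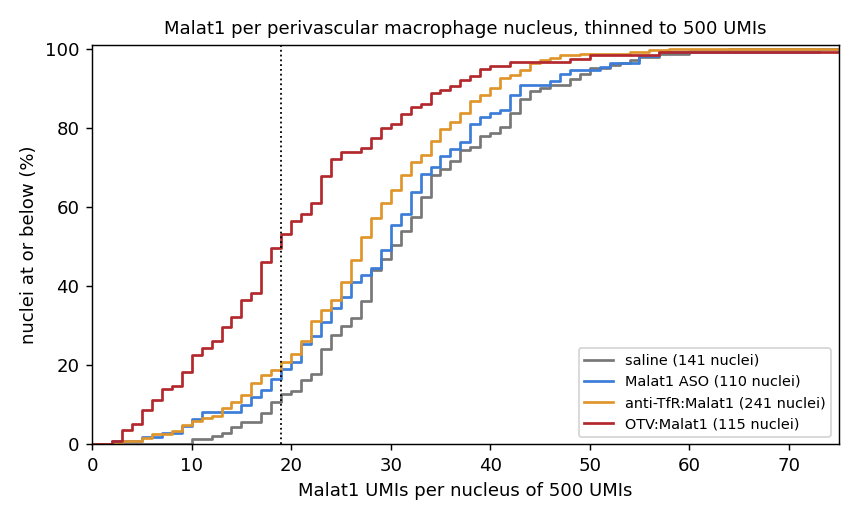
Cumulative share of perivascular macrophage nuclei (percent, vertical axis) with at most a given number of Malat1 UMIs after thinning to 500 UMIs (horizontal axis), 1 line per group, and a dotted line at 19 UMIs. The OTV:Malat1 line is shifted to lower counts along most of its length, with a median of 19 UMIs against 30 in saline.

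Low nuclei made up 6.67%, 2.70%, 6.25% and 23.8% of the label in the saline animals and 14.3%, 16%, 14.7% and 21.7% with Malat1 ASO. With anti-TfR:Malat1 the share ran from 4.65% to 35.9% with a median of 19.8%, and with OTV:Malat1 it was 60.7%, 43.9% and 50.0%. The OTV:Malat1 animals lay above every animal of the other 3 groups. Against saline the difference was 41.7 percentage points (exact permutation p = 0.0571, the smallest possible, adjusted 0.114), and against anti-TfR:Malat1 it was 32.6 points (exact permutation p = 0.0238, adjusted 0.0952). For anti-TfR:Malat1 and Malat1 ASO against saline it was 9.05 points (exact permutation p = 0.190) and 6.83 points (exact permutation p = 0.229, and 7.62 points without replicate 1). Without nuclei scoring under 0.7 these 4 differences were 42.3, 27.3, 15 and 6.61 points, and none passed 0.05 after adjustment over the 4 comparisons (0.0952, 0.0952, 0.0952 and 0.343 by the exact permutation test). Leaving out 1 animal moved the anti-TfR:Malat1 difference to 5.66 points (without its replicate 6) or 13.7 points (without saline replicate 4). It moved the Malat1 ASO difference to 4.44 points (without saline replicate 2) or 11.5 points (without saline replicate 4).

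Malat1 took a larger share of UMIs in perivascular macrophages than in microglia in 17 of 17 animals. The microglial means were 5.06% ± 0.947 in saline, 5.09% ± 0.624 with Malat1 ASO, 4.47% ± 0.544 with anti-TfR:Malat1 and 3.40% ± 0.280 with OTV:Malat1. The gap between the labels within an animal averaged 0.35 log2 units in saline, 0.25 with Malat1 ASO, 0.28 with anti-TfR:Malat1 and 0.26 with OTV:Malat1. The difference of that gap asks whether a compound acted on the 2 cell types to different degrees. It was -0.10 for OTV:Malat1 (exact permutation p = 0.457), -0.07 for anti-TfR:Malat1 (p = 0.343) and -0.10 for Malat1 ASO (p = 0.4, and -0.03 without replicate 1), each against saline, and -0.03 between the carriers (p = 0.81). Within batches the gap difference was -0.30, -0.05 and -0.14 for OTV:Malat1 against saline (batches 2 to 4) and -0.11, -0.11, -0.05 and -0.14 for Malat1 ASO (batches 1 to 4). The pooled values rested on single animals: without OTV:Malat1 replicate 1 the difference was 0.0187 for OTV:Malat1 against saline and 0.0906 between the carriers, both with the sign turned. Without saline replicate 1 and without saline replicate 4 it was -0.14 and -0.03 for anti-TfR:Malat1, and without saline replicate 1 it was -0.17 for Malat1 ASO. Leaving out other animals, saline replicate 3 among them, also moved it by over 1.5 times. Exchanging animals only within batches gave -0.16 (exact permutation p = 0.25) and -0.10 (p = 0.125), each the smallest p those batches allow. For anti-TfR:Malat1 against saline and between the carriers the signs differed among batches. None of the 4 gap differences passed the test.

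Neat1, which lies beside Malat1 and was not the target, stood at 551, 515, 512 and 213 CPM in the saline animals and at 170, 300 and 400 CPM with OTV:Malat1. The groups overlapped, and the log2 change was -0.59 (SE 0.37, edgeR adjusted p = 0.991). The Neat1 change was -0.82 without saline replicate 4 and -0.38 without OTV:Malat1 replicate 1. With Malat1 ASO it stood at 301, 209, 402 and 189 CPM, a change of -0.62 (SE 0.36, edgeR adjusted p = 0.976) that was -0.64 without replicate 1, and with anti-TfR:Malat1 between 172 and 561 CPM, a change of -0.37 (SE 0.30, edgeR adjusted p = 0.979). The latter was -0.59 without saline replicate 4, -0.23 without saline replicate 1 and -0.20 without anti-TfR:Malat1 replicate 1. These rest on 32 to 82 UMIs per group.

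The 3 defining markers did not change in a way that passed the test in any of the 4 comparisons. The label was itself drawn from expression, so nuclei that lost these markers could have left it. The test therefore cannot tell whether the compounds leave these markers unchanged. Mrc1 stood at 2883 ± 751 CPM in saline and 3510 ± 792 CPM with OTV:Malat1 (log2 difference 0.25, SE 0.21, edgeR adjusted p = 0.991). The Mrc1 difference was 0.09 without OTV:Malat1 replicate 3 and 0.47 without saline replicate 3, and leaving out OTV:Malat1 replicate 2 or saline replicate 4 also moved it by over 1.5 times. F13a1 stood at 3363 ± 316 and 4081 ± 755 CPM (0.26, SE 0.19, and 0.12 without OTV:Malat1 replicate 3). Cd163 stood at 490 ± 272 and 571 ± 233 CPM (0.31, SE 0.35, with -0.14 without OTV:Malat1 replicate 2 and 0.77 without saline replicate 4), and with Malat1 ASO at 289 ± 130 CPM (-0.80, SE 0.39, edgeR adjusted p = 0.946). The latter was -0.78 without Malat1 ASO replicate 1 and -0.35 without saline replicate 4. All of these groups overlapped.

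Of the 22 identity genes, 10 could be tested, and none was called, under the same limit of a label drawn from expression. With OTV:Malat1 against saline 8 lay above 0 and 2 below, with a median log2 change of 0.20, against -0.02 over all 1069 genes. With anti-TfR:Malat1 all 10 lay above 0, with a median of 0.15 against 0.00085 over all genes, and with Malat1 ASO 7 lay above 0 with a median of 0.06. Among them Colec12 stood at 594 ± 166 CPM in saline and a mean of 984 CPM with anti-TfR:Malat1 (log2 difference 0.71, SE 0.24, edgeR adjusted p = 0.829). The 13 of 18 shared macrophage genes that were tested had a median of -0.19 with OTV:Malat1, with 5 above 0 and 8 below. Fyb, an adaptor of immune cell adhesion, stood at 1509 ± 196 CPM in saline and 1118 ± 277 CPM with OTV:Malat1 (log2 difference -0.39, SE 0.22).

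Of the 12 identity genes too sparse for the fit, 9 had 40 or more UMIs, and 3 of these, Timd4, Vsig4 and Pf4, had groups that did not overlap in some comparison. They were picked for this after their values were seen, and each reached 40 UMIs only with the counts of the group where it was high, so their values are a description and support nothing. Timd4, a receptor for phosphatidylserine, stood at 182, 190 and 255 CPM with OTV:Malat1 (23 UMIs), against 25.8 to 100 CPM in saline (9 UMIs) and 21.4 to 107 CPM with anti-TfR:Malat1. Vsig4, a complement receptor, ranged from 111 to 170 CPM with OTV:Malat1 and from 0 to 77.3 CPM in saline. Pf4, a chemokine, ranged from 94.3 to 301 CPM with Malat1 ASO, the highest being replicate 1 and the next 144 CPM, and from 0 to 64.04 CPM in saline. Over all 2459 untested genes that passed the same minimum, the groups were separate in this direction for 2.24% with OTV:Malat1 against saline, 1.42% between the carriers and 1.22% with Malat1 ASO, and nothing is read from the 3 genes against these shares. No gene was called by edgeR in the fit without the filter over 15595 genes.

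The routes an antibody-bound oligonucleotide could meet were thinly measured. Of the genes for scavenger and oligonucleotide-binding receptors 4 of 15 were tested in the comparison of OTV:Malat1 with saline, with 3 above 0 and a median of 0.28. Stab1 stood at 1326 ± 254 CPM in saline and 1323 ± 163 CPM with OTV:Malat1 (log2 difference -0.03, SE 0.24). Of the genes for Fc receptors and antibody handling 3 of 9 were tested, with 1 above 0 and a median of -0.44. Syk, the kinase that acts downstream of activating Fc receptors, stood at 337 ± 41.1 and 212 ± 134 CPM (log2 difference -0.68, SE 0.40). Of the iron handling genes 4 of 17 were tested, with 3 above 0 and a median of 0.20. Fth1, the heavy chain of the iron store ferritin, stood at 628 ± 260 and 773 ± 284 CPM (log2 difference 0.38, SE 0.31). Of the endosome and lysosome genes 4 of 20 were tested, 2 on each side of 0 with a median of 0.23, among them Lamp1, a membrane protein of lysosomes, at 142 ± 35.4 and 275 ± 81.0 CPM (log2 difference 0.87, SE 0.50). No member of these lists was called.

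Genes of innate responses were sparser still. Of the nucleic acid sensing genes 3 of 18 were tested with OTV:Malat1 against saline, with 2 above 0 and a median of 0.18. Tlr7 stood at 198 ± 21.6 CPM in saline and 212 ± 72.9 CPM with OTV:Malat1. Only Parp14 of 20 interferon response genes and only Nfkb1 of 18 inflammatory genes could be tested, with log2 differences of -0.22 (SE 0.62) and -0.20 (SE 0.34). The summed interferon genes ranged from 512 to 1251 CPM in saline and from 585 to 1660 CPM with OTV:Malat1, and the summed inflammatory genes from 480 to 651 and from 328 to 511 CPM. The ranges overlapped in both lists. Cd74, the only tested MHC class II gene, stood at 161 ± 124 and 304 ± 243 CPM (log2 difference 0.87, SE 0.56).

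Of the genes listed for resting microglia 7 of 15 were tested, with 3 above 0 and a median of -0.13 with OTV:Malat1 against saline. Of the 4 named by the rule, P2ry12 lay above 0 (log2 difference 0.62, SE 0.34), while Cst3, Tgfbr1 and Bin1 lay below it (-0.20, -0.34 and -0.13, with SE of 0.36, 0.33 and 0.36). Of the 7 tested, 1 had an unadjusted p under 0.05, and it was lower. No member was called. Apoe and Ctsb, the only 2 tested of 15 genes of activated microglia, gave 0.19 (SE 0.32) and -0.05 (SE 0.30). Of the nuclear long noncoding RNAs 6 of 12 were tested, with 1 above 0 and a median of -0.13, Malat1 included. None of the 11 genes for RNase H and RNA decay passed the filter.

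**Figure D5:**
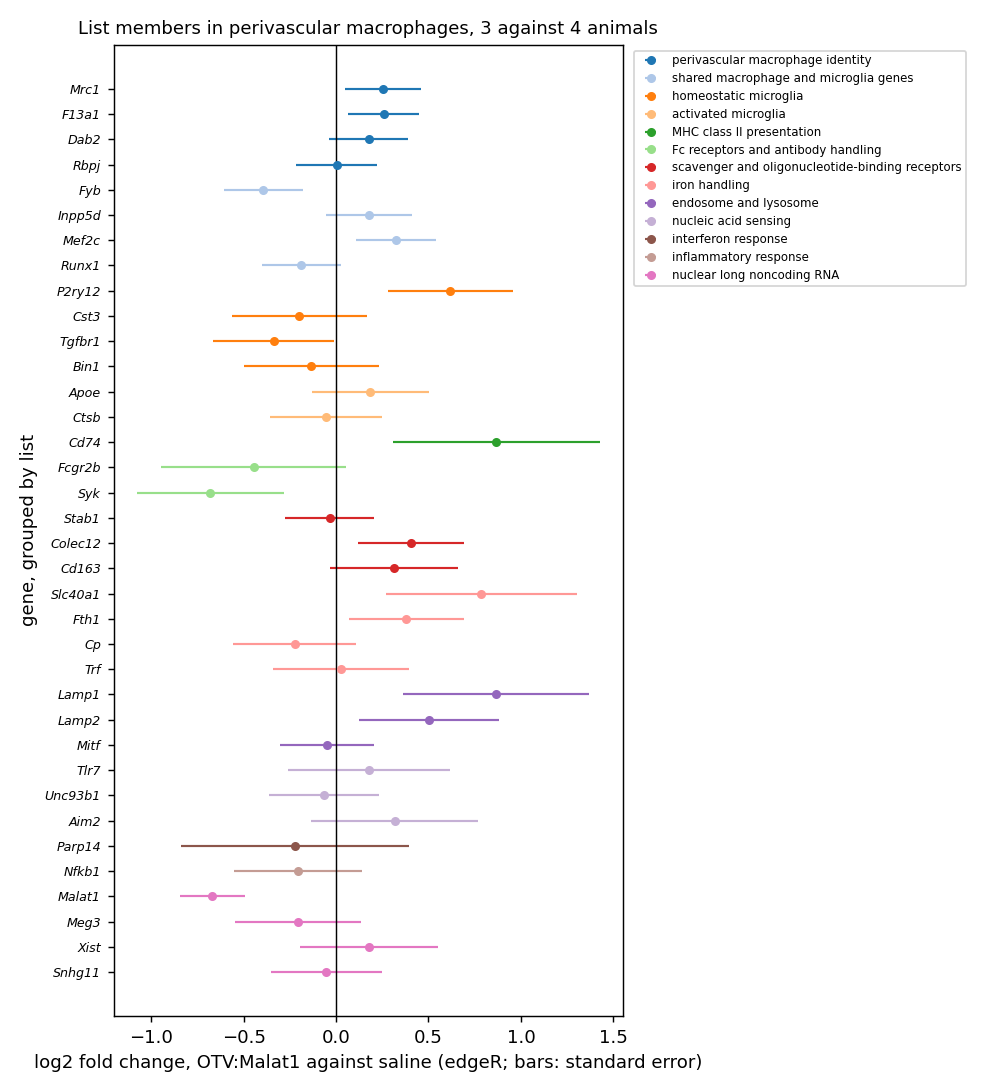
Log2 fold change of 36 genes in perivascular macrophages, OTV:Malat1 (3 animals) against saline (4 animals), as points with the standard error as bars, coloured by the 13 lists they belong to. Of these, 19 lie above 0 and 17 below, and only Malat1 lies more than 2 standard errors from 0.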

How the data were processed

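Single-nucleus RNA was measured in posterior brain of 17 mice. The deposited counts are raw UMI counts per gene and nucleus (26131 genes), made with Cell Ranger 6.0.1 and Seurat 4 on mm10 per the submitters' processing notes. The deposited metadata give each nucleus its label, doublet call, cluster, batch and prediction score, a fraction from 0 to 1 computed by the authors; the reference behind the label is not given in the sources used here, and 9 metadata columns were not used. UMI sums matched the deposited totals in 284074 of 284074 nuclei.

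Counts of the label were summed per animal (20 or more nuclei each) and fitted with edgeR 4.0.16 (limma 3.58.1, R 4.3.3): TMM, filterByExpr, quasi-likelihood F-test, 4 groups in 1 model, Benjamini-Hochberg adjustment at 0.05. DESeq2 1.42.0 was an alternative. Single values were tested by exact permutation with a pseudocount of 1 CPM (scipy 1.17.1 under Python 3.11.15; tables with pandas 2.3.3). On simulated counts for OTV:Malat1 against saline over 1069 genes, the edgeR fit recovered 44% of genes changed 2-fold and 96% of those changed 4-fold, and called 0.691% of unchanged genes. In that simulation 100 genes of each size were changed at once, with 1 spread shared by all genes and no batches. Its shares are therefore not the power of the real comparison. It is not stated how nuclei of an animal were processed, and p-values measure the spread between these animals.

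The members and gene lists were chosen with earlier results of these data known. Named genes are Malat1, Neat1, Tfrc, Mrc1, F13a1 and Cd163, up to 5 called genes each way (none was called), the up to 4 tested members of each list with the highest mean CPM, and the 10 largest ratios each way against microglia; other genes were chosen after their values were seen. Of the listed genes 9 were not matched in the matrix. Alternatives were another normalization, no filter, doublets kept, 1 cluster, deeper nuclei, a higher score, batch and replicate blocks, and each animal left out. Replicate numbers were not taken to pair the animals: no label gives them a meaning, and same-numbered animals did not all deviate together (r from -0.0654 to 0.06 for OTV:Malat1 and saline, -0.062 to 0.138 for anti-TfR:Malat1 and saline, -0.00593 to 0.194 for Malat1 ASO and saline). Same-numbered animals were in the same batch in 4 of 4 pairs of Malat1 ASO and saline, 3 of 4 of anti-TfR:Malat1 and saline, and 0 of 3 of OTV:Malat1 and saline. The r by number of OTV:Malat1 and saline thus says nothing on batches. Their same-batch pairs had r of 0.0562, 0.00749 and 0.101, against -0.141 to 0.0766 for pairs of different batches. For Malat1 ASO and saline, same-batch pairs had r of 0.194, -0.00593, 0.114 and 0.118, against -0.124 to 0.0755 across batches. For anti-TfR:Malat1 and saline, same-batch pairs ran from -0.0714 to 0.138, against -0.0901 to 0.0847 across batches. Most same-batch pairs of Malat1 ASO and saline thus lay above all pairs across batches. The main fit had no batch term. Some listed genes are not reported here.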

Additional observations from a re-analysis of the deposited data

Results flagged for a closer look

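Neat1 in perivascular macrophages of saline replicate 4 stood at 213 CPM, far below the other 3 saline animals, which had 512 to 551 CPM. Its gap to the nearest animal exceeded Dixon's 95% limit for 4 samples. It was the only such case among 24 groups of values examined, where chance alone gives about 1 in 20.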

How the results depend on the processing

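For Malat1 with OTV:Malat1 against saline, the log2 change stayed negative in 29 of 29 alternatives, between -0.82 and -0.58, with edgeR or DESeq2 adjusted p from 0.000572 to 0.9999. Leaving out each animal in turn gave -0.78 to -0.58. It passed 0.05 with the batch block (-0.69) and with the replicate block (-0.71, adjusted p = 0.0433), whose numbers coincide with the batches for some groups only; the cause was not tested. For anti-TfR:Malat1 against saline it ranged over the 29 alternatives from -0.31 to -0.14, the latter with the replicate block.

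Other directions reversed where the value was near 0. Malat1 with Malat1 ASO against saline was 0.0261 with doublets kept and 0.31 with only animals of 30 or more nuclei, which left 1 Malat1 ASO animal, assumed to vary like the other groups. The Malat1 gap to microglia between the carriers was 0.0173 in nuclei of 1000 or more UMIs. The share of nuclei was -0.0026 percentage points for OTV:Malat1 against saline within batches and 0.0025 between the carriers at 1000 or more UMIs. Mrc1 with Malat1 ASO was -0.0062 with no filter, and F13a1 between the carriers was -0.0142 with the replicate block.

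Leaving out each animal gave ranges across 0 for Malat1 with Malat1 ASO (-0.21 to 0.0193), for the gap to microglia with OTV:Malat1 against saline (-0.17 to 0.0187) and between the carriers (-0.10 to 0.0906), and for the share of nuclei with OTV:Malat1 against saline (-0.0494 to 0.0408) and between the carriers (-0.0798 to 0.0105). For Cd163 they were -0.14 to 0.77 with OTV:Malat1 and -0.0179 to 0.65 with anti-TfR:Malat1 against saline and -0.33 to 0.38 between the carriers, and for F13a1 between the carriers -0.0723 to 0.15. For Mrc1 they were -0.0071 to 0.31 with Malat1 ASO, -0.0086 to 0.30 with anti-TfR:Malat1 and -0.0054 to 0.30 between the carriers. Without crossing 0, the ranges were wide against saline for the gap to microglia with Malat1 ASO (-0.17 to -0.03) and anti-TfR:Malat1 (-0.14 to -0.03), and for F13a1 with OTV:Malat1 (0.12 to 0.35), anti-TfR:Malat1 (0.12 to 0.27) and Malat1 ASO (0.19 to 0.38). They were also wide for Mrc1 with OTV:Malat1 (0.09 to 0.47), Cd163 with Malat1 ASO (-1.11 to -0.35) and Neat1 between the carriers (-0.40 to -0.02).

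Keeping doublets moved the mean level of Kcnip4 to 634 CPM and of Mbp to 428 CPM. The fit on nuclei of 1000 or more UMIs with 20 per animal was not run, as too few animals remained; a minimum of 5 nuclei, and the score of 0.7, were chosen after seeing the data. With 23 to 57 nuclei per animal, depth limits what can be seen in genes of few counts.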

Other observations

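Antigen presentation genes were concentrated in a small fraction of the label. With a threshold of 2 UMIs over Cd74, H2-Aa, H2-Ab1 and H2-Eb1, chosen after the values were seen, 71 of the 607 nuclei (11.7%) passed, with 0 to 9 in an animal. Their median depth was 993 UMIs, against 924.5 in the 518 nuclei with no such UMI. Ccr2, a chemokine receptor of monocyte-derived cells, stood at 740 CPM in them and at 7.76 CPM in nuclei with none, and was higher in 14 of the 16 animals that held such nuclei. Klra2, a lectin-like receptor, stood at 855 and 25.2 CPM (higher in 12 of 16 animals). Cd163 stood at 153 and 549 CPM (lower in 13 of 16), Mrc1 at 1570 and 3316 CPM, and F13a1 at 1838 and 4128 CPM. No test applies, since the nuclei were picked by expression.

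Malat1 was lower in the nuclei with MHC class II UMIs than in those with none in 11 of 16 animals. Summed over animals, it made up 6.14% and 6.43% of UMIs in saline, 5.65% and 6.42% with Malat1 ASO, 3.49% and 5.70% with anti-TfR:Malat1, and 2.82% and 4.48% with OTV:Malat1. Per animal, the medians with anti-TfR:Malat1 were 3.71% (2.26% to 4.91%) and 5.55% (4.96% to 6.59%), ranges that did not overlap. The former rest on only 2 to 8 nuclei in an animal. In saline the medians were 6.02% (3.88% to 6.46%) and 6.67% (5.26% to 7.26%), with ranges that overlapped. The 3.88% is that of 1 nucleus, the only such nucleus of saline replicate 3. With Malat1 ASO they were 5.91% (3.65% to 8.10%) and 5.88% (5.49% to 7.76%), and Malat1 was higher in the nuclei with MHC class II UMIs in 3 of the 4 animals and lower in replicate 1 (3.65% against 5.87%). With OTV:Malat1 only 2 animals held nuclei with 2 or more MHC class II UMIs, at 2.43% (7 nuclei) and 3.09% (9 nuclei). The summed 4.48% of nuclei with none also includes replicate 3, which held no such nuclei. Whether these gaps differ between groups was not tested.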
